A study of Mus musculus with 40 samples.

Results

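These results describe 70 microarray probes that gave a signal in the hippocampus of inbred B6 and DBA mice but not, or almost not, in inbred SJL mice. The probes were chosen by their detection scores on the inbred arrays: a probe was taken when its score, 1 minus the detection p, was 0.99 or more on all 8 B6 and DBA arrays and on at most 1 of the 4 SJL arrays. Symbols beginning with Zfp, Rpl, Rps, Psm or H2-, and Aph1b, were left out, which reduced 74 probes to 70 of the 25697 on the array. The 70 carry 66 gene names on 68 probes (Capn2 and Spata7 have 2 probes each), and 2 probes have no name. They make up 0.685% of the 10220 probes detected on all 8 B6 and DBA arrays; 10004 of those were detected on all 4 SJL arrays.

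Hippocampal RNA of 40 mice aged 12 months was hybridised to Illumina mouse Ref-8 BeadChips, with 1 mouse per array. The inbred mice were not transgenic and numbered 4 SJL, 4 DBA and 4 B6. The other 28 mice, of mixed background, carried a transgene (Tg) for APP, the amyloid precursor protein. The transgenic line and its promoter are not given in the sources used here. In order of SJL share, 7 DBA-rich Tg mice were 9% SJL, 75% DBA and 16% B6, and 6 B6-rich Tg mice were 37.5% SJL and 62.5% B6. A group of 3 half-DBA Tg mice was 42% SJL, 50% DBA and 8% B6. The 6 SJL-rich Tg mice were 69% SJL and 31% B6, and the 6 SJL-richest Tg mice were 84% SJL and 16% B6. These percentages describe a background as a whole and do not say which parts of the genome a mouse carried from SJL. No label ties 2 arrays to 1 animal, so replicates are separate mice.

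SJL is an inbred strain known for its susceptibility to experimental autoimmune encephalomyelitis and for a mutation in dysferlin. A mouse of a mixed background carries, at each locus, SJL alleles on both, 1 or neither chromosome, and loci that lie close together on a chromosome are mostly inherited together. A BeadChip probe reads a short stretch of a transcript. A transcript made at a lower level and a transcript whose sequence differs under the probe can both lower its reading, and 1 probe cannot tell them apart. Other probes of the same gene, called sister probes here, give a second reading. Probe sequences were not used here.

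To show the start of 3 genes that the results return to, their promoters were read from RefSeq, build GRCm38.p6, over 250 bases before and 50 after the start. Cops8 (chr1:90603175-90603474, plus strand) is the brightest member. Nme6 (chr9:109832544-109832843, plus strand) and Trex1 (chr9:109059674-109059973, minus strand) lie among 5 neighbouring members on chromosome 9. Capitals mark GGGCGG or its complement CCGCCC, the core of the GC box, searched on both strands.
Cops8: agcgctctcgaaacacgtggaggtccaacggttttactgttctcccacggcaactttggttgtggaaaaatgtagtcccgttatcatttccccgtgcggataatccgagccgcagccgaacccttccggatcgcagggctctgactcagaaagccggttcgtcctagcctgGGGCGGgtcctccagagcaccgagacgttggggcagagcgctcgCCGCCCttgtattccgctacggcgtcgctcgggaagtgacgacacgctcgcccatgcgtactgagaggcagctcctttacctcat
Nme6: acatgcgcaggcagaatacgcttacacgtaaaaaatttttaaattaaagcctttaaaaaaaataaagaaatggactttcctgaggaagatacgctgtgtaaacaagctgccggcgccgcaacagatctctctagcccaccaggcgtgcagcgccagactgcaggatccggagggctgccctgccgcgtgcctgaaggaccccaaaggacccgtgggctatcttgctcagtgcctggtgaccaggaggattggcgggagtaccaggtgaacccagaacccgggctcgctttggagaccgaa
Trex1: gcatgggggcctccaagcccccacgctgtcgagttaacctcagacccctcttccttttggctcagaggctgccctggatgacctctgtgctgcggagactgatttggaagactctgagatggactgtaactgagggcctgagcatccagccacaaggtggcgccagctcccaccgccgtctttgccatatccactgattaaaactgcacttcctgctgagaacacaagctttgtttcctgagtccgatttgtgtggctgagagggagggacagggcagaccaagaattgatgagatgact
The Cops8 window holds 2 matches and the other two windows none. Of the 66 member genes, 51 had a promoter in the table, and 72.5% of these held the motif. The share was 71.6% over the 6007 genes with a probe detected on all 8 B6 and DBA arrays and 35.7% over all 32851 promoters, so the members were close to other detected genes. The match describes letters and not a site.

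Before the results, 1 limit of the deposited files bears on which inbred mouse is which. The 28 Tg arrays carry the same identity in both deposited tables. For 8 of the 12 inbred arrays the identities differ, and in 6 cases the strain differs too. The members follow the numbered columns of the non-normalized table. With the order of the other table, the same rule took 26 probes, and 0 of the 70 were among them. The median log2 difference between SJL-richest and B6-rich Tg mice was -0.61 for the 70 members, against -0.08 for those 26, and between SJL-rich and DBA-rich Tg mice it was -0.74 for the 70, against 0.09 for the 26. The Tg comparisons rest on identities that both tables give. The values in inbred mice and the choice of members rest on the numbered columns.

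The share of probes detected per array was 43.2 to 43.9% in SJL mice, 41.5 to 47.95% in DBA mice and 43.7 to 48.8% in B6 mice. It was 43.1 to 48.1% in SJL-richest Tg mice, against 44.4 to 47.6% in B6-rich Tg mice. It was 47.4 to 50.0% in SJL-rich Tg mice, against 45.9 to 49.1% in DBA-rich Tg mice. Of the hippocampal neuron markers, Prox1, Wfs1, Fibcd1 and C1ql2 were detected on all 40 arrays, while Neurod6 and Tdo2 were detected on none. The choroid plexus markers differed most between mice: the summed log2 signal of 5 of them ran from 12.5 to 15.2 in SJL-richest Tg mice, against 10.3 to 14.1 in B6-rich Tg mice, and from 12.0 to 15.4 in SJL-rich Tg mice, against 11.7 to 15.6 in the later DBA-rich Tg mice. None of these 5 passed the test in either pair. Over all marker lists, with the brightest probe of each of 27 genes, 2 fell and 0 rose in the earlier pair described below, the astrocyte gene Aldh1l1 (-0.28, adjusted p = 0.0473, limma) and the microglial gene C1qa (-0.47, adjusted p = 0.0311, limma). In the later pair 1 fell, the astrocyte glutamate transporter Slc1a2 (-0.42, adjusted p = 0.00533, limma), and 4 rose. These were the oligodendrocyte genes Mobp (0.43) and Mal (0.50), the thalamic marker Prkcd (0.63) and the dentate gyrus marker C1ql2 (0.66), with adjusted p from 0.0153 to 0.0407 (limma). The other thalamic markers, Tnnt1, Rora and Tcf7l2, went the other way (-0.14, -0.15 and -0.12), and none of them passed. The summed log2 signal of 4 oligodendrocyte genes ran from 14.6 to 14.9 in SJL-rich Tg mice, against 14.2 to 14.7 in the later DBA-rich Tg mice, and that of 4 astrocyte genes from 11.6 to 12.2, against 11.9 to 12.1. The part of these cell types in the members' results was not tested. In whole hippocampus, fewer cells of a type and less RNA per cell cannot be told apart.

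In the inbred mice, which chose the members, the values are a description. The mean normalized log2 signal of the members ran from 4.41 to 5.80 in SJL mice, where the lowest detected signal of the 40 arrays lay between 5.27 and 6.00. It ran from 5.95 to 10.7, with a median of 6.79, over B6 and DBA mice. Of the 70 probes, 50 were detected on no SJL array and 20 on 1. Because SJL readings lie at background, folds are bounds. They set the mean of the brighter strain against the higher, per SJL array, of its own value and the lowest detected signal. The bound passed 4-fold against both other strains for 12 members and stayed under 2-fold against at least 1 of them for 41.

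Cops8, a subunit of the COP9 signalosome that removes the Nedd8 tag from cullin ubiquitin ligases, averaged 4.85 ± 0.09 in SJL mice, 10.79 ± 0.06 in DBA mice and 10.60 ± 0.03 in B6 mice (log2, SD, n = 4 each). It was at least 28.1-fold lower in SJL than in B6 mice. Spink8, of the Kazal family of serine protease inhibitors, averaged 4.57 ± 0.10 in SJL, 10.54 ± 0.34 in DBA and 10.78 ± 0.09 in B6 mice and was at least 31.8-fold lower in SJL than in B6 mice. Chchd4, which imports and oxidises proteins of the mitochondrial intermembrane space, was at least 16.8-fold lower. The bounds against B6 were 13.1-fold for the leucine-rich repeat gene Lrrc57 and 10.8-fold for Pdrg1, a gene named for its response to p53 and DNA damage. They were 6.68-fold for the lysosomal carboxypeptidase Prcp, 6.38 and 4.56-fold for the 2 probes of Capn2, which encodes the catalytic subunit of m-calpain, and 5.29-fold for Ccdc117. Tmem68, an acyltransferase-like membrane protein of the endoplasmic reticulum, differed among all 3 strains, with 4.64 ± 0.09 in SJL, 8.28 ± 0.31 in DBA and 10.61 ± 0.12 in B6 mice.

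At the edge of the rule, the 20 probes detected on 1 SJL array had a median difference of SJL from B6 and DBA of -0.70 on the log2 scale. The 32 probes just outside, detected on 2 SJL arrays, had a median of -0.38, with a range of -2.38 to 0.06. The brightest just inside were Ccdc117, Wdr78, Chst10 and Vrk1, with differences of -2.86, -2.10, -1.91 and -1.84. Of the brightest just outside, Cdhr1 had -2.38, Cd59b -0.81 and the unnamed probes ILMN_2725927 and ILMN_3102163 -1.07 and -1.12. So probes with a large strain difference stood on both sides.

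The Tg mice were not used to choose the members and show how the probes follow SJL ancestry. The number of members detected in a mouse had a median of 69 (64 to 70) in DBA-rich, 56.5 (46 to 61) in B6-rich, 62 (60 to 63) in half-DBA, 51 (44 to 55) in SJL-rich and 38.5 (30 to 44) in SJL-richest Tg mice. All inbred B6 and DBA mice had 70 by the rule, and SJL mice had 3 to 9. Every SJL-richest mouse was below every B6-rich mouse, and every SJL-rich mouse below every DBA-rich mouse. The B6-rich and half-DBA groups, at 37.5 and 42% SJL, did not keep the order of SJL share.

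Both Tg pairs, which share no arrays, tested the members, and p-values were adjusted over all 13589 probes tested, with limma. In SJL-richest against B6-rich Tg mice (6 and 6, earlier arrays), 7 of the 70 members fell and 0 rose, while 0.736% of all probes were called lower. The median log2 difference was -0.61 for the members and 0.01 for all probes, and 66 of the 70 were below 0, beside 48.1% of all probes. Only 62 of the 70 were detected on 4 or more arrays of this pair, and 58 of these were below 0. The others entered the test through arrays outside the pair. In SJL-rich Tg mice against the 6 DBA-rich Tg mice of the later arrays, 34 members fell and 1 rose, while 3.19% of all probes were called lower and 4.03% higher. Earlier and later arrays are told apart by running number only (up to 16, and 17 to 28). The median was -0.74 for the members and 0.00 for all probes, and again 66 were below 0, beside 51.0% of all probes. Of the members, 62 were below 0 in both pairs. The 5 that fell in both pairs were 71.4% of the 7 and 14.7% of the 34. The matching counts over all probes are not given here, so nothing is read from these counts across both pairs.

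The later pair differs in DBA as well as SJL share, so these 2 cannot be told apart in it. The calls of the earlier pair depended on single mice, for the members and for all probes. Leaving out 1 array gave 0 to 8 members called lower. It gave 0 without B6-rich mouse 4 or SJL-richest mouse 5, and 1 without SJL-richest mouse 3. It gave 2 without B6-rich mouse 1 or 5 or SJL-richest mouse 1, 3 without B6-rich mouse 3 and 4 without B6-rich or SJL-richest mouse 2. Of all probes, 100 were called lower with every array in. This became 7 without B6-rich mouse 4, 11 without SJL-richest mouse 5, 23 without SJL-richest mouse 3 and 159 without B6-rich mouse 6. The members' median difference stayed between -0.63 and -0.52, with at least 63 below 0. With runs of 8 consecutive arrays as a block, 3 members fell in the earlier pair, where 0.552% of all probes were called lower, and 11 in the later, where 0.979% were. Within runs that held both groups, the members' median difference was -0.51 and -0.63 in the earlier pair (arrays 1 to 8 and 9 to 16) and -0.83 in the later pair (arrays 17 to 24). These runs held 3 SJL-richest and 5 B6-rich mice, 3 SJL-richest and 1 B6-rich mouse, and 6 SJL-rich and 2 DBA-rich mice. The -0.63 therefore rests on 1 B6-rich mouse. The block fit of the later pair takes its difference from the last of these runs alone. A run is inferred from the running number, since no label names a chip.

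Over the 28 Tg mice, with array set as a covariate, 48 members fell with percent SJL and 0 rose, while 4.47% of all probes were called lower. The median slope was -1.34 log2 units per 100% SJL for the members and 0.00 for all probes. This fit reuses the arrays of both pairs. With percent DBA added to it, 13 members fell, with a median slope of -1.30, while 2% of all probes were called lower. In the 18 mice without DBA ancestry 6 fell, with a median slope of -1.34, while 0.522% of all probes were called lower.

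Where mice of a group lay at background, the log2 differences and slopes below are those of the readings as normalized, and their size has no exact meaning. Pdrg1 fell with percent SJL, with a slope of -6.25 ± 0.81 (SE, adjusted p = 1.28e-05, limma). Its log2 signal was 4.33, 4.54 and 8.63 (lowest, median and highest) in SJL-richest Tg mice, against 8.44, 8.84 and 9.54 in B6-rich Tg mice. Only SJL-richest mouse 6 was detected, and its level lay within the B6-rich range; the other 5 lay at background. The difference was -3.73 ± 0.63 (SE, adjusted p = 0.0258, limma, n = 6 each). It was 4.51, 4.82 and 8.34 in SJL-rich Tg mice, against 9.08, 9.21 and 9.45 in DBA-rich Tg mice, with a difference of -3.30 ± 0.67 (adjusted p = 0.0102, limma). There the groups did not overlap, and 2 of the 6 SJL-rich mice, both at 8.34, stood far above the others. With the block of runs, the adjusted p was 0.0354 in the earlier and 0.109 in the later pair.

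Cfl1 encodes cofilin 1, which severs actin filaments. It was detected in none of the 6 SJL-rich and none of the 6 SJL-richest Tg mice, where it ran from 4.36 to 4.46 and from 4.32 to 4.57. It ran from 6.77 to 7.42 in the DBA-rich Tg mice of the later arrays, so that it was at least 3.22-fold lower in SJL-rich mice (adjusted p = 3.88e-09, limma). In B6-rich Tg mice it was 6.13 to 7.22 in 5 mice and undetected, at 4.36, in mouse 3. The bound against SJL-richest mice was 1.52-fold (adjusted p = 0.0361, limma, and 0.0555 with the block of runs). Cfl1 belongs to a family with near-identical copies in the genome, and a probe that reads more than 1 copy would not separate them.

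Wars2, the mitochondrial tryptophanyl-tRNA synthetase, was near background throughout. It had 4.97, 5.32 and 5.55 in SJL-richest Tg mice, against 5.55, 5.88 and 6.05 in B6-rich Tg mice, a difference of -0.57 ± 0.11 (adjusted p = 0.0361, limma). It had 5.18, 5.42 and 5.88 in SJL-rich, against 6.03, 6.16 and 6.35 in DBA-rich Tg mice, a difference of -0.69 ± 0.11 (adjusted p = 0.00184, limma). The groups did not overlap in either pair, although 2 and 4 of the 6 mice with more SJL were still detected. Its brighter sister probe ILMN_1213053 went the other way, by 0.42 in the earlier pair (adjusted p = 0.164, limma) and 0.41 in the later (adjusted p = 0.182, limma). The sister's slope on percent SJL was 0.76 (adjusted p = 0.00768, limma). The fall of Wars2 is thus that of 1 probe.

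Kcnj6, the GIRK2 subunit of G protein-gated potassium channels, differed by -0.90 ± 0.19 in the earlier pair (adjusted p = 0.0434, limma) and by -0.54 ± 0.11 in the later one (adjusted p = 0.00778, limma). Its levels were 5.16 to 5.81 in SJL-richest Tg mice, against 5.56 to 6.79 in B6-rich Tg mice, which overlapped through B6-rich mouse 1. The fifth such member was D830030K20Rik, with -1.92 ± 0.40 (adjusted p = 0.0422, limma) in the earlier and -1.70 ± 0.40 (adjusted p = 0.0217, limma) in the later pair. It was detected in 1 of 6 SJL-richest and 2 of 6 SJL-rich Tg mice, and in all B6-rich and DBA-rich ones. This gene belongs to a family of near-identical copies, so its reading may include them.

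With the block of runs, the adjusted p of D830030K20Rik, Wars2 and Kcnj6 in the earlier pair was 0.0530, 0.0675 and 0.0787. In the later pair it was 0.217 for D830030K20Rik, 0.0370 for Wars2 and 0.0860 for Kcnj6. The other two that fell in the earlier pair were the transcription factor gene Creb1 (-0.59 ± 0.12, adjusted p = 0.0383, limma) and Cbwd1 (-1.73 ± 0.38, adjusted p = 0.0468, limma). In the later pair their differences were -0.38 (adjusted p = 0.121, limma) and -0.52 (adjusted p = 0.579, limma).

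Among the brightest members, most Tg mice fell into separate levels rather than a graded series. Cops8 lay at 4.47 to 4.69 in 4 SJL-richest Tg mice (1, 2, 3 and 5) and at 9.25 and 9.28 in the other two. The 6 B6-rich Tg mice held 9.18 to 10.45. The difference was -3.65 ± 0.90 and did not pass the test (adjusted p = 0.0684, limma). In SJL-rich Tg mice Cops8 was 9.59, 9.74 and 10.57, against 10.65, 10.73 and 10.86 in DBA-rich Tg mice, so all 6 were detected and none overlapped the DBA-rich range (difference -0.88 ± 0.14, adjusted p = 0.00184, limma). Half-DBA mice held 9.26 to 9.37.

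Of the COP9 signalosome, 9 of 10 subunit genes were on the array and all 9 were measured. With the brightest probe of each, 2 fell in the later pair, Cops8 and Cops5, and 0 rose. Over all probes 3.19% were called lower in that pair. Cops8 is a member and was chosen by its SJL readings, so nothing is read from this count about the complex. In the earlier pair 0 passed. Cops5, the catalytic subunit, differed by -0.29 (adjusted p = 0.0193, limma) in the later pair. In inbred mice the same probe averaged 10.38 in SJL, 10.43 in DBA and 10.39 in B6 mice. The median log2 difference of the 9 was 0.00 in the earlier and -0.04 in the later pair.

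Lrrc57 was undetected in all 6 SJL-richest Tg mice (4.42 to 4.75), in 4 of 6 SJL-rich mice (4.31 to 4.52) and in 2 of 6 B6-rich mice (4.41 and 4.42). The other SJL-rich mice had 8.41 and 8.50, the other B6-rich ones 8.14 to 8.36, and DBA-rich ones of the later arrays 8.60 to 9.66. The difference was -2.49 ± 0.72 in the earlier pair (adjusted p = 0.101, limma) and -3.47 ± 0.77 in the later one (adjusted p = 0.0152, limma).

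Prcp was undetected in 3 of 6 SJL-richest and 3 of 6 SJL-rich Tg mice, at 4.72 to 5.28, and the others lay at 7.51 to 7.62. B6-rich Tg mice had 7.46 to 8.70 and the later DBA-rich ones 8.17 to 8.47. It fell in the later pair (-2.05 ± 0.49, adjusted p = 0.0230, limma) and missed the threshold in the earlier (-1.97 ± 0.54, adjusted p = 0.0909, limma). Chchd4 was 6.05 and 6.07 in SJL-richest mice 6 and 4 and 5.38 in SJL-rich mouse 3, where the other mice of these groups had 8.96 to 9.83. Its difference did not pass in either pair (adjusted p = 0.242 and 0.158, limma). For Ccdc117, 4 of 6 SJL-richest and 2 of 6 SJL-rich mice were undetected, and again neither pair passed (adjusted p = 0.0786 and 0.120, limma).

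The 2 Capn2 members were undetected in the same 8 of 28 Tg mice: 4 SJL-richest, 2 SJL-rich and 2 B6-rich ones. The probe ILMN_1219583 fell in the later pair (-1.70 ± 0.47, adjusted p = 0.0444, limma) and ILMN_2683586 missed the threshold (-1.78 ± 0.53, adjusted p = 0.0653, limma). The 2 Spata7 members had the same detection call in 26 of 28 mice, and both fell in the later pair (-1.34 ± 0.24, adjusted p = 0.00475, and -1.37 ± 0.33, adjusted p = 0.0225, limma).

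Tmem68 was the 1 member that rose. It had 9.56, 9.68 and 10.75 in SJL-rich Tg mice, against 7.56, 8.08 and 8.32 in DBA-rich Tg mice, a difference of 1.83 ± 0.19 (adjusted p = 8.95e-05, limma; 0.00188 with the block of runs). The groups did not overlap. In the earlier pair it was 4.54, 9.22 and 9.40 in SJL-richest, against 9.25, 9.84 and 10.25 in B6-rich Tg mice (-1.31 ± 0.72, adjusted p = 0.389, limma), and mouse 4 alone was undetected. Half-DBA mouse 1 was also undetected, at 5.34, while the other two had 8.77 and 9.48.

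The DBA and B6 arrays also chose the members, since each had to be detected on all 8, so their difference is a description and nothing is read from its calls. By the threshold used elsewhere, 7 of the 70 were lower and 5 higher in DBA, beside 6.37% and 5.93% of all probes. Tmem68 averaged 8.28 ± 0.31 in DBA and 10.61 ± 0.12 in B6 mice (SD, n = 4 each), a difference of -2.33. Cfl1 averaged 6.42 ± 0.25 in DBA and 7.16 ± 0.10 in B6 mice, a difference of -0.74. The unnamed probe ILMN_1214731, Cfap69, Fgfbp3, Cbwd1 and Siglech were also lower, with -0.75, -0.60, -0.55, -0.49 and -0.33. Fhit, Smarcc1, Usp38, Tgs1 and Wars2 were higher, by 0.58, 0.55, 0.45, 0.37 and 0.36. With the second table, which differs in its values as well as in its strain order, 0 of the 70 members passed.

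Sister probes read the same genes again. They numbered 61 for 35 of the genes, and 26 of them were detected in no inbred mouse. Another 22, for 19 genes, were detected in all 12 inbred mice, which also means that no sister lost in SJL mice is among them. Their median difference of SJL from B6 and DBA was -0.10 on the log2 scale (-1.65 to 0.88), and 19 of 22 lay within 0.5 of 0. The member probes of the same 19 genes had a median of -1.71, which their choice set. Of the 22, 20 are annotated to the same transcript accession as the member. The 1 that lay further below 0 than its member was that of the cell adhesion gene Negr1 (-0.30, against -0.28 for its member). The remaining 13 sisters were detected in some inbred mice, and 10 of these in no SJL mouse. All 13 had lower means in SJL than in B6 and DBA mice, with a median difference of -0.48 (-0.85 to -0.03), many of them near background. They include second probes of Nme6 (-0.85, against -0.54 for its member), Cfap69 (-0.82), Krr1 (-0.64), Serinc2 (-0.63), Slc14a1 (-0.57 and -0.40, against -0.48 for its member), Kctd14 (-0.51) and Ryr1 (-0.48). Over all 32 sisters that entered the tests, 26 were below 0 in SJL mice, with a median of -0.25.

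For several members a sister of the same gene was read at close levels in all 3 strains; levels are compared within each probe. The Capn2 members averaged 4.76 and 4.55 in SJL, 8.49 and 8.20 in DBA and 8.46 and 7.98 in B6 mice, and the sister ILMN_2620030 8.25, 8.41 and 8.28 in the same order. The member of Timm9, a chaperone of the mitochondrial intermembrane space, averaged 4.73 in SJL, 7.86 in DBA and 7.68 in B6 mice, and the sister ILMN_1217794 11.61, 11.64 and 11.59. The member of Bfar, a membrane regulator of apoptosis, averaged 4.65 in SJL, 7.81 in DBA and 7.63 in B6 mice, and its sister 8.73, 8.83 and 8.76.

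Tgs1, which trimethylates the caps of small nuclear RNAs, had sister levels of 7.85 in SJL, 8.02 in DBA and 7.80 in B6 mice. For Taf12, a subunit of the general transcription factor TFIID, these were 8.11, 8.27 and 8.26. The sister of Mgst1, a microsomal glutathione transferase, had a difference of 0.35 in SJL mice, where its member had -2.38. The sister of Wars2 had a difference of 0.88 (8.54 in SJL, 7.78 in DBA and 7.53 in B6 mice), where its member had -0.61.

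Sisters with lower means in SJL mice included those of Siglech, a lectin of microglia (-0.47), Prkaa2, the alpha 2 catalytic subunit of AMP-activated kinase (-0.38), and Trex1, a DNA exonuclease (-0.31). Of the probes detected in all 12, they were also lower for Krr1, of ribosome assembly (-0.14), Kctd14 (-0.10) and the ryanodine receptor Ryr1 (-0.69, against -0.74 for its member). The lowest, at -1.65, was a second Timm9 probe, ILMN_3116614, annotated to another transcript accession than the member.

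In Tg mice, 9 of the 19 members with such a sister fell in the later pair, with a median of -0.80. Over all probes 3.19% were called lower in that pair. Of the 22 sisters of these members 1 fell, Timm9 ILMN_3116614 (-0.90 ± 0.18, adjusted p = 0.00762, limma), and the median was -0.07. This count was near the share over all probes, and nothing is read from it. Of the 10 other sisters tested, 2 fell, Cfap69 ILMN_2628236 (-0.86 ± 0.15, adjusted p = 0.00324, limma) and Kctd14 ILMN_3022911 (-0.58 ± 0.12, adjusted p = 0.0120, limma). Their members fell too, by 2.16 and 0.98 on the log2 scale. In the earlier pair 1 of the 19 members fell, Wars2, and 1 sister did, Kctd14 ILMN_3095279 (-0.57, adjusted p = 0.0311, limma). There 0.736% of all probes were called lower, and nothing is read from these 2 counts. For Bfar the member fell to 4.38 to 4.99 in SJL-rich Tg mice, against 7.01 to 7.82 in DBA-rich Tg mice (at least 4.18-fold lower, adjusted p = 1.07e-07, limma), and its sister differed by 0.03 ± 0.08 (adjusted p = 0.895, limma). For Mgst1 the member differed by -1.65 and the sister by 0.04 ± 0.08, and for Krr1 by -1.28 and -0.12 ± 0.08. The difference between a member and its sister was not itself tested. Members without a sister detected in all 12 inbred mice, among them Cops8, Spink8, Pdrg1, Lrrc57, Prcp and Cfl1, have no such second reading.

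Members that lie near each other on a chromosome were mostly lost in the same Tg mice. Gene order was taken from RefSeq on GRCm38.p6. The 14 pairs of different genes within 2 Mb had the same detection call in a median of 27 of 28 Tg mice. The median was 21 of 28 for 121 pairs farther apart on 1 chromosome and 20 of 28 for 2141 pairs on different chromosomes. After group means were removed, the median correlation of log2 signals was 0.78 (-0.22 to 0.92) over the 14 pairs. It was 0.18 (-0.46 to 0.95) over the farther pairs and 0.01 (-0.63 to 0.75) over the pairs on different chromosomes. These are descriptions over the same 28 arrays, and many pairs share a gene. Many of the 14 also come from 1 stretch of chromosome 9, whose genes were undetected in only 2 or 3 mice, which by itself makes most calls equal. Apart from these and from Tmem68 with Tgs1, the pairs within 2 Mb had the same call in 22 to 25 mice, and in 11 for Pex5l with Ccdc39.

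The largest run lies on chromosome 9: 6430571L13Rik, Trex1, Spink8, Nme6 and Smarcc1, a core subunit of the BAF chromatin remodelling complex. 4 of them were undetected in exactly 3 of 28 Tg mice, SJL-richest mouse 4 and SJL-rich mice 2 and 5. In these 3 mice Spink8 read 4.40, 4.94 and 4.73, while the other mice of the 2 groups had 8.55 to 11.01. Smarcc1 read 4.57 in SJL-richest mouse 4 and 4.94 to 4.99 in the 2 SJL-rich mice, and 5.84 to 6.87 in the others. Nme6, of the nucleoside diphosphate kinase family, was undetected in SJL-richest mouse 4 and SJL-rich mouse 5 and close to background in all mice. Of the 5, Smarcc1 fell in the later pair (-1.24 ± 0.31, adjusted p = 0.0301, limma), while Spink8 did not pass in either pair (adjusted p = 0.520 and 0.260, limma).

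The neighbouring genes Tmem68 and Tgs1 on chromosome 4 had the same call in 27 of 28 mice, and both were undetected in SJL-richest mouse 4, at 4.54 and 4.82. Their difference between DBA and B6 mice went opposite ways, -2.33 for Tmem68 and 0.37 for Tgs1. Also on chromosome 4, Wdr78, of axonemal dyneins, and Prkaa2 correlated at 0.90 within groups, and Serinc2 and Taf12 at 0.80. Il6st, the gp130 receptor subunit of interleukin 6 signalling, and Ccno on chromosome 13 correlated at 0.80, and Hgs, of endosomal sorting, and Cenpx, of the centromere, on chromosome 11 at 0.76. The exception was Pex5l and Ccdc39 on chromosome 3, at -0.22 and with the same call in 11 of 28 mice; Ccdc39 was detected in all Tg mice.

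Of the 70 members, 20 did not pass in either pair or in the slope. The matching count over all probes is not given here, so nothing is read from this one. The brightest of them were Spink8, Taf12, Wdr78, the unnamed probe ILMN_1214731, the secreted growth factor binder Fgfbp3 and Prkaa2. Each was lost in some Tg mice, Spink8 only in SJL-richest and SJL-rich ones. Taf12 was undetected in 4 SJL-richest mice, at 4.48 to 4.98, in SJL-rich mouse 6 and in B6-rich mouse 3. Prkaa2 was undetected in 5 of 6 SJL-richest, against 4 of 6 B6-rich Tg mice, and Fgfbp3 in 3 of 6, against 1 of 6.

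A few members differed in detection between the earlier and later pairs of groups. The spliceosome helicase gene Aqr was undetected in all 6 SJL-richest and all 6 B6-rich mice of the earlier arrays, while it was detected in 2 of 6 SJL-rich and all 6 DBA-rich mice of the later ones. The remaining earlier mice were low too, with 4.43, 4.81 and 4.79 in half-DBA mice and 5.44 in DBA-rich mouse 1, against 6.36 to 6.93 in the later DBA-rich mice. Fhit, a dinucleoside hydrolase, was undetected in the 12 SJL-richest and B6-rich mice and detected in all 12 later ones. Other earlier arrays detected it, with 6.01 in DBA-rich mouse 1 and 5.94 and 5.78 in half-DBA mice 2 and 3, and half-DBA mouse 1 did not (4.82). H2bc18, 1 of many near-identical histone genes, was detected in 0 SJL-richest and 1 B6-rich mouse, in none of the 4 other earlier mice, and in all 12 later ones. For these the earlier pair compares readings at background.

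No member passed a test against amyloid. Within backgrounds, 0 of the 13589 probes passed for a slope on log10 Abeta40, the peptide measured in the guanidine fraction of each Tg mouse (percent called 0; 541 probes and 3 members had an unadjusted p under 0.05, limma). The 3 were Cfl1 (0.69 log2 units per log10 unit), Tbc1d1 (0.44) and Ryr1 (-0.38), each with an adjusted p of 0.999. The median slope was 0.06 for the members and 0.00 for all probes. Dysf and Pde6b, known to carry variants in SJL mice, had probes on the array but too few detected readings to be tested.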

How the data were processed

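The deposited non-normalized table holds, per the file headers, a signal intensity and a detection p-value per probe and array; the latter is near 1 for bright probes and was read as 1 minus the p. The authors' second deposited table holds signal intensity too. The steps that made either table are not given in the sources used here. All 80 columns of the first table and all 40 of the second were matched to samples, by the running number in the titles and by accession.

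Intensities of the 40 arrays were normalized together with neqc of limma 3.58.1 (R 4.3.3, statmod 1.5.0; offset 16). The 13589 probes detected (p up to 0.01) on 4 or more arrays entered lmFit and eBayes; calls were made at a Benjamini-Hochberg adjusted p of 0.05, each pair in a fit of its own arrays, and the fits were tested on simulated data. All 70 members passed this filter, which their choice fixed, since each had to be detected on all 8 B6 and DBA arrays. Of all probes, 23978 had 1 symbol and 1719 none, and 23962 were matched to RefSeq by Entrez number. No precision per array can be given beyond the number of arrays. With 1 mouse per array, p-values measure the spread of mice and arrays together. They include any spread between runs unless the block was fitted.

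The members, gene lists and tests were chosen with earlier results of these data known. Named genes are members that fell in both pairs or rose in either, the 10 brightest, those with the largest gap to a sister probe, the 6 brightest that did not pass, those at the edge of the rule, Cops8, Spink8, Tmem68 and members within 2 Mb of another. Creb1, Cbwd1, Aqr, Fhit, H2bc18 and the members of the inbred and Abeta40 comparisons were named after their values were seen. Alternatives covered the second table, background correction, normalization of subsets, filters, variance models, runs of 8 arrays as a block, the series' t-test, other covariates, and leaving out single arrays. The strain order of the second table was added after the data were seen.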

Additional observations from a re-analysis of the deposited data

Results flagged for a closer look

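Of 63 groups of per-mouse values examined, 13 held 1 mouse whose gap to the nearest other was large for the group's range; chance gives about 1 in 20. SJL mouse 2 had 9 members detected, and DBA-rich mouse 1, on an earlier array, had 64. Cops8 read 10.34 in DBA-rich mouse 1 (the lowest of its group) and 10.57 in SJL-rich mouse 5 (the highest). In SJL-richest mice, Spink8 read 4.40 and Tmem68 4.54 in mouse 4 alone, Pdrg1 8.63 in mouse 6 alone, D830030K20Rik 7.20 in mouse 4 alone, and Lrrc57 4.75 in mouse 4, itself at background. In SJL-rich mice, Chchd4 read 5.38 in mouse 3 alone and Tmem68 10.75 in mouse 2. Prcp read 8.17 in a DBA-rich mouse, the lowest of its group, and Kcnj6 5.56 in B6-rich mouse 1.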

How the results depend on the processing

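The number of member probes was 70, 76 at a detection p of 0.05, 100 at 0.001, 50 with 0 of 4 SJL arrays detected, 70 to 91 without single arrays and 26 with the strain order of the second table. The 70 shared 39 probes with the 76, 43 with the 100 and 0 with the 26. In the earlier Tg pair, 7 members fell; 4 did without background correction, 2 without the filter, 3 with runs of 8 as a block, 0 with the series' t-test after adjustment (26 at an unadjusted p under 0.05) and 0 to 8 without single arrays. Over all probes the calls in that pair were 165, 105 with the block, 102 without the filter and 16 with the t-test. Without single arrays they were 12 to 317. In the later pair, 34 members fell, 11 with the block and 27 to 37 without single arrays; all calls were 982, and 310 with the block. The slope on percent SJL gave 48, 13 with percent DBA added, 6 in the 18 DBA-free mice and 45 to 51 without single arrays; all calls were 1325, 867 with the block, 487 and 107. Between DBA and B6 mice, whose arrays also chose the members, 12 members passed, 0 with the values and strain order of the second table (75 of all probes, against 1672) and 9 to 13 without single arrays. For Abeta40, 0 members were called under every setting run. The members' median difference stayed below 0 in both Tg pairs and in the slope under every setting run. Cfl1 and Wars2 kept their call in the later pair under all 20 settings, Pdrg1 and Kcnj6 under 19 and D830030K20Rik under 18; in the earlier pair Cfl1 kept it under 8, Wars2 11, Pdrg1 16, Kcnj6 6 and D830030K20Rik 6 of the 20. Where a call was lost the cause was not tested. No paired analysis was possible because the replicate numbers only name arrays in accession order. Signals near background limit 41 members to a bound under 2-fold.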
